A study of Mus musculus with 12 samples.

Results

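Slc17a6, Slc17a7 and Slc17a8 encode the vesicular glutamate transporters VGLUT2, VGLUT1 and VGLUT3. They were taken by gene name from the count table and are 3 of its 54429 entries. The study sequenced total RNA from punched brain tissue of C57BL/6 mice, in 12 libraries and 4 groups of 3. The groups are BLA of males kept in social isolation from early life, BLA of group-housed males, VTA of females isolated in the same way and VTA of group-housed females. Region names in the labels are the abbreviations BLA and VTA, the tissue is called cerebrum, and ages and the length of isolation are not stated there. Sex comes from the design text and changes together with region, so region and sex cannot be told apart in any comparison between BLA and VTA. Nothing in the labels tells whether libraries of a group are from different animals, so p-values measure only how these libraries spread, which may be technical.

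A vesicular glutamate transporter loads glutamate from the cytosol into synaptic vesicles, driven by the proton gradient that the vesicular ATPase builds, and a neuron that makes any of these proteins can release glutamate. VGLUT1 is the usual form in cortex, hippocampus and basolateral amygdala, and VGLUT2 in thalamus, hypothalamus and midbrain, including neurons of the ventral tegmental area that release glutamate alone or together with dopamine or GABA. VGLUT3 is found in scattered neurons better known for other transmitters, such as serotonin neurons of the raphe, cholinergic interneurons of the striatum and interneurons that make cholecystokinin.

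In GRCm38, the assembly also called mm10, Slc17a7 lies at chr7:45163949-45176142 and Slc17a6 at chr7:51622006-51671119, both on the plus strand, while Slc17a8 lies at chr10:89574020-89621253 on the minus strand. The main annotated transcript of each has 12 exons. The exons of no other gene overlap theirs, and no gene on the opposite strand overlaps their spans. The coding sequences were 71.7% identical between Slc17a6 and Slc17a7, 71.6% between Slc17a6 and Slc17a8 and 71.4% between Slc17a7 and Slc17a8, counted over the aligned bases. The longest run of coding bases that any pair shared was 25, between Slc17a6 and Slc17a8. To show how far apart the transcripts are where they are most alike, the 75-base coding stretch with the fewest differences among the 3 genes is printed here from the reference transcripts, 5′ to 3′, with the 18 positions at which they are not all the same in capitals.
Slc17a6: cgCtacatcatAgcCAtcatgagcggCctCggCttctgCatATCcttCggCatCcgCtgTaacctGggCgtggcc
Slc17a7: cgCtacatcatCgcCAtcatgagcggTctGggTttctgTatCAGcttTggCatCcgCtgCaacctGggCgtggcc
Slc17a8: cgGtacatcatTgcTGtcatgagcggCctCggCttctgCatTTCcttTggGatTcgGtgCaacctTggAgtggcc
Within this stretch Slc17a6 and Slc17a7 differed at 10 bases, Slc17a6 and Slc17a8 at 12, and Slc17a7 and Slc17a8 at 16. Read length and the treatment of reads that match more than 1 gene are not given in the sources available.

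Total counts ran from 28277721 to 69270051 per library, and several libraries stood apart. Isolated BLA library 3 and group-housed BLA libraries 1 and 2 had 18.6%, 28.6% and 41.8% of their counts in loci that collect ribosomal RNA reads, against at most 1.57% in the other libraries. Isolated VTA library 3 was rich in choroid plexus genes (3471 CPM summed over 12 genes, where CPM are counts relative to library size, with TMM scaling over the 12 libraries) and in cortical and basolateral neuron genes, and isolated VTA library 1 held choroid plexus genes at 277 CPM, against 41.8 to 62.2 CPM in the other VTA libraries. Group-housed VTA library 3 was rich in serotonin neuron genes. The regions carried their labels' markers: Slc6a3, the plasma membrane carrier of dopamine, did not exceed 1.08 CPM in BLA and ran from 233 to 531 CPM in VTA, and Neurod6, a transcription factor of cortical and amygdalar neurons, lay between 23.5 and 46.4 CPM in BLA and between 3.14 and 20.1 CPM in VTA.

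The main contrast in the data lay between the regions. Slc17a7 was high in the BLA libraries and Slc17a6 in the VTA libraries, while Slc17a8 was low in both. Slc17a7 lay between 448 and 973 CPM in the 6 BLA libraries, with a median of 837 CPM, and between 2.92 and 229 CPM in the 6 VTA libraries, with a median of 6.81 CPM. Slc17a6 lay between 25.4 and 93.7 CPM in BLA (median 64.3 CPM) and between 325 and 603 CPM in VTA (median 408 CPM). For neither gene did the libraries of the regions overlap. In the edgeR quasi-likelihood test, averaged over both housing conditions, Slc17a7 was 42.9-fold higher in BLA than in VTA (log2 fold change 5.42, SE 0.86, 95% interval 3.46 to 7.39, Benjamini-Hochberg adjusted p = 0.000855). Slc17a6 was 6.95-fold lower in BLA (log2 fold change -2.80, SE 0.28, 95% interval -3.44 to -2.16, Benjamini-Hochberg adjusted p = 3.465e-05). Such calls were common in this comparison: 11940 of 25009 genes (47.7%) passed, 23.7% being higher in BLA and 24.1% lower, and 53.5% had an unadjusted p under 0.05, so the 2 of 3 transporters that passed are to be read against that background. Between the means of the group-housed libraries, which do not include the VTA library with high Slc17a7, the log2 fold change of Slc17a7 was 7.74 (SE 1.35, edgeR, Benjamini-Hochberg adjusted p = 0.00227) and that of Slc17a6 was -2.43 (SE 0.39, adjusted p = 0.00115). These SE and p values rest on the spread in the fit of all 12 libraries, which does include that library. In bulk RNA, fewer cells of a type and less RNA per cell cannot be told apart.

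**Figure D1:**
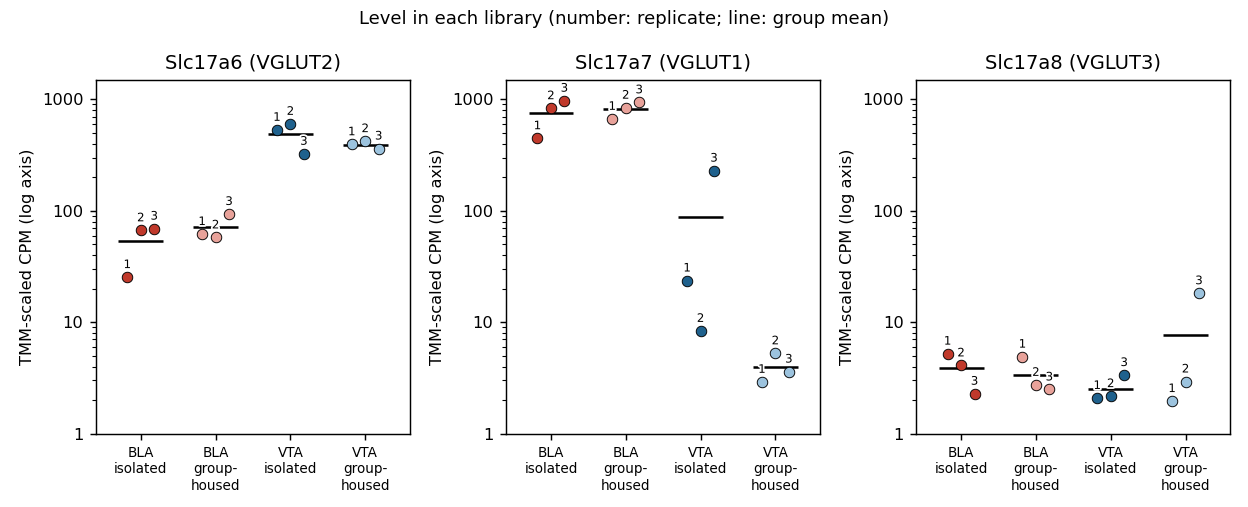
Level of each vesicular glutamate transporter gene in every library, in TMM-scaled CPM on a log axis; points are libraries with their replicate number and lines are means of 3 libraries. Slc17a7 is at 448 CPM or more in all BLA libraries, Slc17a6 is at 325 CPM or more in all VTA libraries, and the high points of isolated VTA library 3 (Slc17a7, 229 CPM) and group-housed VTA library 3 (Slc17a8, 18.2 CPM) stand apart from their groups.

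Slc17a8 did not separate the regions. It had 5.22, 4.09 and 2.28 CPM in isolated BLA and 4.91, 2.74 and 2.49 CPM in group-housed BLA, and 2.09, 2.17 and 3.36 CPM in isolated VTA and 1.96, 2.94 and 18.2 CPM in group-housed VTA. These levels rest on 46 to 1500 counts per library. The lowest count, in group-housed BLA library 2, gave a 95% Poisson interval of 2.01 to 3.65 CPM, which covers counting error only. The log2 fold change of BLA over VTA was -0.26 (SE 0.55, 95% interval -1.51 to 0.99, edgeR, Benjamini-Hochberg adjusted p = 0.736). This value turned on a single library: without group-housed VTA library 3 it was 0.56 (SE 0.26, adjusted p = 0.0936), and without isolated VTA library 3 as well, 0.70 (SE 0.25, adjusted p = 0.0376), which passes.

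As group means, Slc17a6 had 53.8 ± 24.6 CPM in isolated BLA and 71.0 ± 19.7 CPM in group-housed BLA, and 487 ± 145 CPM in isolated VTA and 393 ± 29.8 CPM in group-housed VTA (mean ± SD of 3 libraries, here and below). From high to low the order was isolated VTA, group-housed VTA, group-housed BLA and isolated BLA, and neighbouring groups overlapped except for the step between the regions. Slc17a7 had 751 ± 272 CPM in isolated BLA and 817 ± 138 CPM in group-housed BLA, and 87.2 ± 124 CPM in isolated VTA and 3.93 ± 1.20 CPM in group-housed VTA. The BLA groups overlapped, and both VTA groups lay below them and apart from each other, as the VTA housing groups did for 28.6% of all genes tested. Slc17a8 had 3.87 ± 1.48 CPM in isolated BLA and 3.38 ± 1.33 CPM in group-housed BLA, and 2.54 ± 0.71 CPM in isolated VTA and 7.70 ± 9.12 CPM in group-housed VTA, and every group overlapped with its neighbours in that order of levels.

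Levels of different genes can be compared only per length, so CPM were divided by the length of the union of each gene's exons (5.399 kb for Slc17a6, 5.392 kb for Slc17a7 and 4.72 kb for Slc17a8). On this scale Slc17a7 made up 92.9 ± 0.71% of the 3 transporters' transcripts in isolated BLA and 91.6 ± 1.44% in group-housed BLA, with Slc17a6 at 6.43 ± 1.05% in isolated BLA and 7.93 ± 1.38% in group-housed BLA. In VTA, Slc17a6 made up 95.3%, 98.2% and 58.2% in the isolated libraries, against 98.7%, 98.0% and 93.7% in the group-housed libraries. The remainder of isolated VTA library 3 was almost wholly Slc17a7, at 41.1%, and the remainder of group-housed VTA library 3 mostly Slc17a8, at 5.39%. Elsewhere Slc17a8 was between 0.25% and 1.25%.

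**Figure D2:**
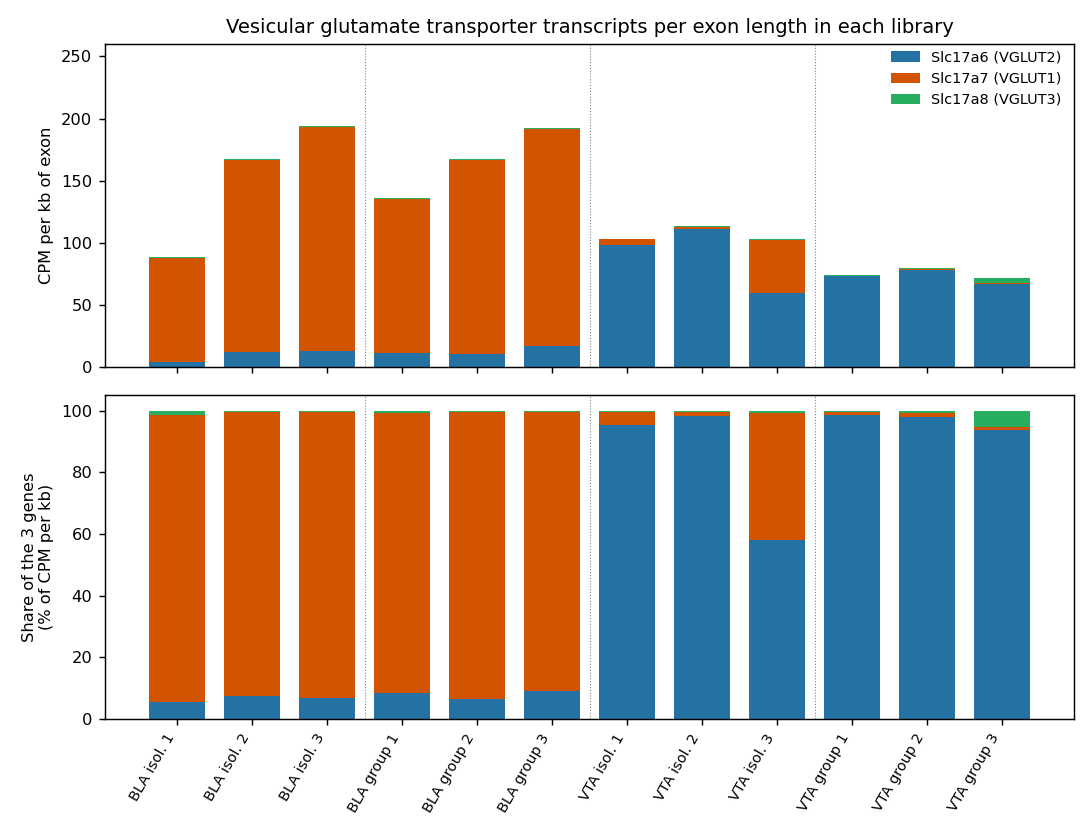
Upper panel, CPM per kb of exon for the 3 genes stacked in each library; lower panel, the share of each gene in that sum, in percent. Slc17a7 takes 90.7% or more in every BLA library, and Slc17a6 93.7% or more in every VTA library except isolated library 3, at 58.2%.

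The sum of the 3 genes per kb was 104, 114 and 103 CPM per kb in isolated VTA, against 74.2, 79.7 and 71.6 CPM per kb in group-housed VTA, so these groups did not overlap. In isolated VTA library 3, rich in choroid plexus and cortical genes, 42.55 CPM per kb of the sum was Slc17a7. Its Slc17a6 was 60.2 CPM per kb, below the 67.1 to 78.1 CPM per kb of the group-housed VTA libraries. Isolated libraries lay above all group-housed ones for 16.8% of all genes tested in VTA. In BLA the sum was 88.8, 168 and 194 CPM per kb in isolated libraries and 137, 167 and 192 CPM per kb in group-housed libraries, and the groups overlapped. The sum was formed after the values of the single genes had been seen and was not tested. Divided by the longest transcript in place of the union of exons, the VTA groups again did not overlap, with 137 to 154 CPM per kb in isolated and 92.8 to 104 CPM per kb in group-housed libraries.

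Among genes around glutamate release, the share that passed between the regions has to be set against all genes tested, of which 23.7% were higher in BLA and 24.1% lower. Of the other carriers that fill synaptic vesicles, 1 of 6 passed as higher in BLA and 2 as lower, so 3 of 6 passed against 47.7% of all genes. For Slc6a17, a vesicular transporter of neutral amino acids, the log2 fold change was 0.98 (SE 0.08). Slc18a2, which loads monoamines, had -4.27 (SE 0.17), and Slc10a4, an orphan vesicle carrier of cholinergic and monoaminergic neurons, -2.48 (SE 0.57). The GABA and glycine carrier Slc32a1 had 0.70 (SE 0.26, edgeR, Benjamini-Hochberg adjusted p = 0.0509) and did not pass. Of 17 genes that make, recycle or clear glutamate, 5 passed as higher in BLA and 9 as lower, with a median of -0.30 against -0.02 over all genes tested. The mitochondrial glutamate carrier Slc25a22 stood at a log2 fold change of 1.24 (SE 0.13) and its relative Slc25a18 at -1.14 (SE 0.09). Among plasma membrane transporters, Slc1a2, which clears most synaptic glutamate into astrocytes, had 0.89 (SE 0.08) and the neuronal Slc1a1 0.74 (SE 0.09), whereas Slc1a6 had -0.90 (SE 0.10). Of the 6 remaining members of the SLC17 family, which carry other organic anions or nucleotides, only Slc17a5 and Slc17a9 passed the filter on low counts, and neither passed the test. Slc17a1 and Slc17a4 had 0 counts in all libraries.

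Markers of neurons that use each transporter were compared in the same way. Of 19 markers of cortical and basolateral glutamatergic neurons, 18 passed as higher in BLA at a median log2 fold change of 2.48, against 23.7% and a median of -0.02 over all genes tested, and none passed as lower. Of 15 markers of midbrain and diencephalic glutamatergic neurons, 11 passed as lower in BLA, against 24.1% of all genes tested, and none as higher, at a median of -5.17. Some of these genes, Pou4f1 among them, were at or near 0 in BLA, so the fold changes of those genes depend on the prior count of the fit. For cell types with VGLUT3 the lists differed in direction, and Slc17a8 itself did not pass. Of 6 cholecystokinin interneuron markers, 5 passed as higher in BLA and 1 as lower, at a median of 1.76. Of 5 cholinergic neuron markers, 2 passed as higher and 0 as lower, at a median of 1.76. Of the 5 serotonin neuron markers tested, 1 passed as higher and 1 as lower, at a median of -3.02.

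Isolation was compared with group housing within each region. In BLA the housing groups overlapped for all 3 genes and none passed. Slc17a6 had 25.4, 66.8 and 69.2 CPM in isolated BLA, against 61.8, 57.6 and 93.7 CPM in group-housed BLA. Slc17a7 had 448, 832 and 973 CPM in isolated BLA, against 668, 841 and 941 CPM in group-housed BLA. Isolated library 1 was the lowest of the 6 libraries for both genes, and isolated libraries 2 and 3 lay within the range of the group-housed ones for Slc17a6, and within and above it for Slc17a7. The log2 fold change, isolated over group-housed, was -0.41 for Slc17a6 (SE 0.43, 95% interval -1.51 to 0.69), -0.13 for Slc17a7 (SE 0.28, 95% interval -0.78 to 0.53) and 0.19 for Slc17a8 (SE 0.34, 95% interval -0.56 to 0.95), each with a Benjamini-Hochberg adjusted p = 1 in edgeR. The intervals thus leave room for differences of either sign. In this comparison edgeR called 0 of 22109 genes (0%), limma voom 0 and DESeq2 6, while 439 genes (1.99%) had an unadjusted p under 0.05, none of the 3 transporters among them. The housing groups did not overlap for 6.96% of all genes tested in BLA, isolated being higher for 4.41% and lower for 2.56%.

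Isolated BLA library 1 also differed in marker genes. The 19 cortical and basolateral markers summed to 2191, 3059 and 3587 CPM in isolated BLA and to 2935, 3760 and 3317 CPM in group-housed BLA, so that library was the lowest here too. Cholinergic neuron markers summed to 90.6, 22.8 and 13.7 CPM in isolated BLA and to 41.7, 19.8 and 9.23 CPM in group-housed BLA. Chat, the enzyme that makes acetylcholine, was highest in isolated library 1 (24.3 CPM) and group-housed library 1 (12.9 CPM), which were also the libraries with most Slc17a8. Without isolated library 1 the log2 fold change was 0.14 for Slc17a7, -0.08 for Slc17a8 and -0.07 for Slc17a6. The part of these markers in the differences was not tested. With the 3 libraries high in ribosomal loci left out, so that only group-housed library 3 remained on its side, the values were -1.02 for Slc17a6, -0.56 for Slc17a7 and 0.90 for Slc17a8, and none passed.

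In VTA, Slc17a7 was higher in every isolated library than in any group-housed one, but the size of this difference rested on 1 library and it did not pass the test. Slc17a7 had 23.7, 8.35 and 229 CPM (1053, 658 and 13942 counts) in isolated VTA, against 2.92, 5.26 and 3.61 CPM (195, 306 and 297 counts) in group-housed VTA. Isolated library 3 was 9.70-fold above the next highest VTA library. The log2 fold change was 4.44 (SE 1.51, 95% interval 0.47 to 8.42), a 21.8-fold difference, with an unadjusted p = 0.0354 and a Benjamini-Hochberg adjusted p = 0.259 in edgeR. Without isolated library 3 it was 1.98 (SE 0.50, unadjusted p = 0.011, adjusted p = 0.385), and with group-housed library 3 left out as well, 1.91 (SE 0.71, adjusted p = 0.358). DESeq2 called Slc17a7 with a log2 fold change of 4.44 and an adjusted p = 0.0226, and over all alternatives other than leaving out single libraries the adjusted p ran from 0.0226 to 0.986. The separation of the groups is common in this region: besides the 16.8% of all genes tested whose isolated libraries all lay above the group-housed ones, as for Slc17a7, 11.8% lay apart in the other direction. edgeR called 1 of 24081 genes (0.00415%) in VTA, with 4409 (18.3%) at an unadjusted p under 0.05, and none of the 3 transporters was the gene called.

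Cortical and choroid plexus genes were high in the same library. The 19 cortical and basolateral markers summed to 540, 463 and 1290 CPM in isolated VTA, against 427, 428 and 393 CPM in group-housed VTA. Tbr1, a transcription factor of cortical projection neurons, had 1.53, 0.825 and 12.7 CPM in isolated VTA, against 0.494, 0.584 and 0.486 CPM in group-housed VTA. Camk2a, a kinase abundant in forebrain excitatory neurons, had 102, 104 and 394 CPM in isolated VTA, against 94.2, 102 and 69.1 CPM in group-housed VTA. All of these were highest in isolated library 3, but not every gene of the list was. Nrn1, with the list's smallest p in edgeR, was highest in isolated library 1. It had 67.7, 50.5 and 62.4 CPM in isolated VTA, against 34.5, 35.5 and 39.6 CPM in group-housed VTA. Rorb was lowest in isolated library 3, with 48.1, 48.8 and 36.7 CPM in isolated VTA, against 51.2, 50.45 and 37.6 CPM in group-housed VTA. Ttr, which the choroid plexus makes in large amounts, had 204, 2.76 and 3072 CPM in isolated VTA, against 0.359, 0.258 and 0.911 CPM in group-housed VTA. Isolated library 3 was the highest for Ttr too. For the whole cortical list, 18 of 19 genes were higher in isolated VTA at a median log2 fold change of 1.14, against -0.00 over all genes tested, and for the choroid plexus list 12 of 12 at a median of 2.67. In edgeR 0 genes of either list passed, with 5 cortical and 3 choroid plexus genes at an unadjusted p under 0.05, while limma voom called 0 and DESeq2 called 2 of each list. Over all genes tested in VTA, 18.3% had an unadjusted p under 0.05 in edgeR, and DESeq2 called 485. Without isolated library 3 the medians were 0.33 for the cortical list, with 18 of 19 higher, and 0.67 for the choroid plexus list, with 9 of 12 higher. The part of such tissue in the Slc17a7 difference was not tested.

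**Figure D3:**
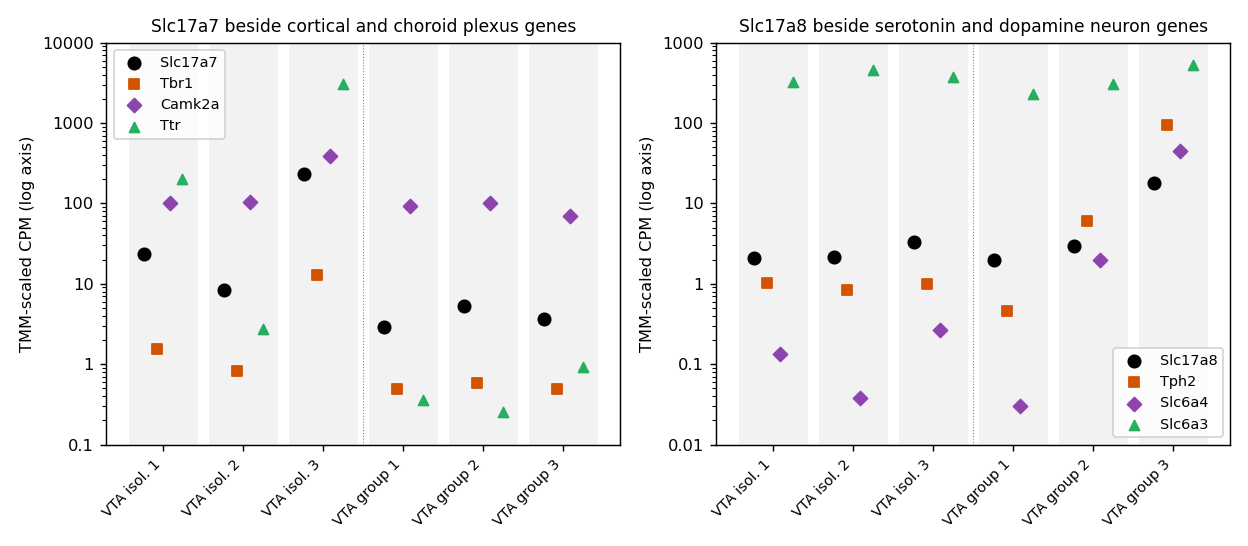
Levels in the 6 VTA libraries in TMM-scaled CPM on a log axis. Left, Slc17a7 beside the cortical genes Tbr1 and Camk2a and the choroid plexus gene Ttr, all highest in isolated library 3. Right, Slc17a8 beside the serotonin neuron genes Tph2 and Slc6a4 and the dopamine neuron gene Slc6a3, all highest in group-housed library 3.

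Slc17a6, the transporter that prevails in VTA, had 533, 603 and 325 CPM in isolated VTA, against 395, 422 and 362 CPM in group-housed VTA. Isolated libraries 1 and 2 were the highest of the region and isolated library 3 the lowest, so the groups overlapped. The log2 fold change was 0.27 (SE 0.21, 95% interval -0.24 to 0.78, edgeR, Benjamini-Hochberg adjusted p = 0.501). Without isolated library 3 it was 0.49 (SE 0.10, unadjusted p = 0.000779, adjusted p = 0.385), and without group-housed library 3 as well, 0.42 (SE 0.09, adjusted p = 0.19), so it did not pass there either. Dopamine neuron markers, whose cells in part carry VGLUT2, summed to 1170, 1474 and 1271 CPM in isolated VTA, against 859, 1133 and 1813 CPM in group-housed VTA. With all libraries 7 of 11 were higher in isolated VTA, at a median of 0.09. There edgeR called 0, with 2 at an unadjusted p under 0.05, limma voom called 0 and DESeq2 called 1. Without both VTA libraries 3, a setting chosen after seeing the data, 11 of 11 were higher at a median of 0.39, with 0 called by edgeR. Glial markers were also uneven: of 8 oligodendrocyte markers all were higher in isolated VTA (median 0.44, 4 at an unadjusted p under 0.05), as were all 8 microglia markers (median 0.30, 0 at an unadjusted p under 0.05), with 0 called by edgeR, DESeq2 or limma voom. Of 8 astrocyte markers 7 were higher, at a median of only 0.07 (1 at an unadjusted p under 0.05), also with 0 called. These counts stand beside 18.3% of all genes tested in VTA at an unadjusted p under 0.05 in edgeR. Without isolated library 3 the microglia markers were higher for 7 of 8 at a median of 0.12. Their part in the level of Slc17a6 was not tested.

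Slc17a8 in VTA stood out in group-housed library 3 alone, with 18.2 CPM from 1500 counts, 5.43-fold above the next highest VTA library. Its log2 fold change, isolated over group-housed, was -1.63 (SE 0.93, 95% interval -3.99 to 0.73, edgeR, Benjamini-Hochberg adjusted p = 0.387), and without that library it was 0.00 (SE 0.31, adjusted p = 0.997). Serotonin neuron genes were high in the same library. Tph2, the enzyme of neuronal serotonin synthesis, had 1.03, 0.838 and 0.987 CPM in isolated VTA, against 0.464, 6.13 and 94.1 CPM in group-housed VTA. Slc6a4, the serotonin transporter, had 0.135, 0.0381 and 0.263 CPM in isolated VTA, against 0.0299, 1.99 and 44.9 CPM in group-housed VTA. Group-housed library 3 exceeded the next highest VTA library 15.3-fold in Tph2 and 22.5-fold in Slc6a4. The dopamine neuron gene Slc6a3 was also highest in that library, 1.17-fold above the next highest VTA library. The 6 serotonin markers together summed to between 26.1 and 32.2 CPM in isolated VTA and between 22.03 and 178 CPM in group-housed VTA, and of the 5 that could be tested all were lower in isolated VTA, at a median of -1.17, and without group-housed library 3 the count was 3 of 5 at a median of -0.98. None of these passed in edgeR (1 at an unadjusted p under 0.05) or limma voom, and DESeq2 called 3. Over all genes tested in VTA, for this list and those below, 18.3% had such a p in edgeR and DESeq2 called 485. The 1 gene was Slc22a3, with 0.944, 1.07 and 1.37 CPM in isolated VTA, against 1.99, 2.32 and 3.15 CPM in group-housed VTA. Gata3 was highest in isolated library 1, at 5.37 CPM, against 4.845 CPM in group-housed library 3. Markers of cholecystokinin interneurons, another cell type with VGLUT3, were higher in isolated VTA for 6 of 6 genes at a median of 0.58, summing to 298, 221 and 366 CPM against 234, 199 and 194 CPM in group-housed VTA, with 0 called by edgeR, 1 at an unadjusted p under 0.05, 0 called by limma voom and 1 by DESeq2. Without isolated library 3 this was 5 of 6 genes at a median of 0.20. Cholinergic neuron markers were higher in isolated VTA for 3 of the 4 tested, at a median of 1.04, with 0 called by edgeR, 2 at an unadjusted p under 0.05, 0 called by limma voom and 1 by DESeq2, and without isolated library 3 for 2 of 4 at a median of 0.27. They summed to 9.17, 8.404 and 27.6 CPM in isolated VTA, against 20.04, 16.4 and 4.78 CPM in group-housed VTA. Most of the sum in group-housed libraries 1 and 2 was Isl1, the 1 of the 4 tested that was lower in isolated VTA. Isl1 had 1.034, 2.59 and 3.966 CPM in isolated VTA, against 15, 11.68 and 0.5586 CPM in group-housed VTA. Chat had 1.595, 1.206 and 5.645 CPM in isolated VTA, against 0.733, 0.8588 and 1.129 CPM in group-housed VTA. The part of these cells in the level of Slc17a8 was not tested.

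Genes that make, recycle or clear glutamate showed no call with housing. In VTA 11 of 17 were higher in isolated libraries at a median of 0.16 (0.27 without group-housed library 3), and in BLA 6 of 17 at a median of -0.03. In VTA 4 of 17 had an unadjusted p under 0.05, against 18.3% of all genes tested, and in BLA 0, against 1.99%, and edgeR, DESeq2 and limma voom called 0 in either region. The smallest p in VTA were those of Slc1a1 (log2 fold change 0.39, SE 0.14), Slc1a2 (0.29, SE 0.10) and Got1, a cytosolic aspartate aminotransferase (0.25, SE 0.10). Of the 6 other vesicular carriers, 1 was higher in isolated VTA (median -0.15; 3 of 6 and a median of 0.00 without group-housed library 3) and 4 in isolated BLA (median 0.13), with 0 called by the 3 tools and 0 at an unadjusted p under 0.05.

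Whether the response to isolation differed between BLA of males and VTA of females was tested directly, as the response in BLA minus that in VTA. For Slc17a7 the difference was -4.64 (95% interval -8.09 to -1.19, unadjusted p = 0.0144, edgeR, Benjamini-Hochberg adjusted p = 0.303). Without isolated VTA library 3 it was -2.16, and DESeq2 with all libraries gave -4.60 and an adjusted p = 0.0449. For Slc17a6 it was -0.74 (SE 0.53, 95% interval -1.93 to 0.46, adjusted p = 0.517), and for Slc17a8 1.76 (SE 1.11, 95% interval -0.75 to 4.27, adjusted p = 0.461). edgeR called 0 of 25009 genes (0%) in this test, with 3728 (14.9%) at an unadjusted p under 0.05, while limma voom called 0 and DESeq2 138.

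**Figure D4:**
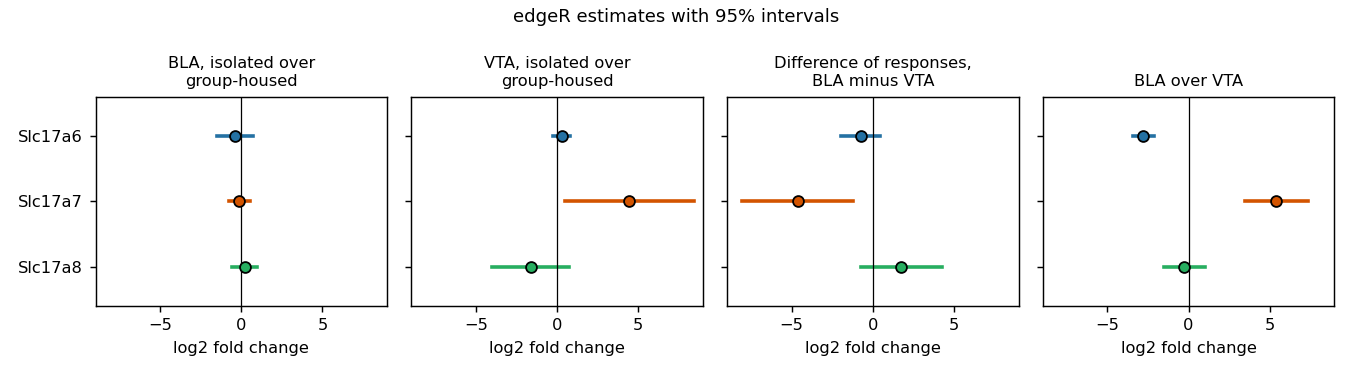
Log2 fold changes from edgeR with 95% intervals for each gene in the 4 comparisons. The intervals of Slc17a6 and Slc17a7 lie away from 0 between the regions, and those of Slc17a7 also do so in VTA and in the difference of the responses, where the adjusted p values (0.259 and 0.303) miss the threshold.

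The genes whose pattern over the 12 libraries was most like each transporter were found by the root mean square difference in centred log2 CPM, among 16656 genes of at least 1 CPM on average. The likeness covers libraries, region, sex and any admixed tissue alike, and carries no test. Nearest to Slc17a6 was Adcyap1, the neuropeptide PACAP (difference 0.22), at 6.62 to 20.9 CPM in BLA and 68.2 to 158 CPM in VTA, with isolated VTA library 2 the highest and isolated VTA library 3 the lowest, as for Slc17a6. Crnde, Fam167a, Ebf2 and Pcbd1 followed at 0.39 to 0.48. Among the nearest to Slc17a7 were Tbr1 (0.56), described above, and Ankrd63, Kcnh3 and A830036E02Rik, at up to 0.67. Ankrd63 had 54.1 to 97.7 CPM in BLA and, in VTA, 1.71, 0.444 and 25.2 CPM in isolated against 0.479, 0.567 and 0.267 CPM in group-housed libraries, again highest in isolated library 3. Adamtsl5 (0.52), Sfn, Crybg1, the synaptic vesicle protein gene Sv2c and Gm14204 were nearest to Slc17a8, at up to 0.66, and Adamtsl5 had 4.70 CPM in group-housed VTA library 3 and 1.44 to 2.56 CPM in the other VTA libraries.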

How the data were processed

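The deposited values are raw gene counts in 1 table for the 12 libraries and in a file per library. The authors made stranded libraries from total RNA after ribosomal depletion, per the labels' protocols, and mm10, TopHat2, HTSeq and cutadapt are listed in the submitters' processing notes. No version, strand setting or annotation is given in the sources used here. The table differs from the files at 2 entries per library, and at none of the 3 transporter genes. Of its entries, 4 share a name with another.

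The test was the robust quasi-likelihood F test of edgeR 4.0.16 (R 4.3.3), with TMM factors, on genes that passed filterByExpr at a minimum count of 10 and a minimum total of 15. Benjamini-Hochberg adjustment ran across every gene tested, at a threshold of 0.05. Each region was fitted on its 6 libraries, and the difference of the responses and BLA against VTA on all 12. All 3 transporter genes passed the filter in every comparison. A standard error is the log2 fold change divided by the root of its F. Per-length levels, coordinates and coding sequences come from the GENCODE annotation and transcripts of GRCm38, and the alignments were made with Biopython 1.88. Log2 CPM for likeness used a prior count of 2. DESeq2 1.42.0, limma voom (limma 3.58.1), other factors and filters, a replicate block and leaving out libraries were alternatives. The procedure was tested on simulated counts for the housing comparisons. No simulated library held admixed tissue, so that test does not bear on effects of single libraries. Figures were drawn with matplotlib 3.10.9.

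The genes, the lists of related genes and markers, and the tests were chosen with earlier results of these data known. Named genes were the 3 transporters, the 5 genes nearest to each, up to 3 genes of a list by smallest p, and defining markers. Some genes that this rule selects are not reported here. Camk2a, Rorb, Slc25a22, Slc1a6, Slc17a1, Slc17a4 and Pou4f1 fall outside the rule and were chosen after their values were seen. Libraries of a group differed by more than sampling noise, the lowest chi-square per degree of freedom being 20.8 over 12 pairs.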

Additional observations from a re-analysis of the deposited data

How the results depend on the processing

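Between BLA and VTA, Slc17a6 and Slc17a7 kept direction and passed in all 9 alternatives (log2 fold change -2.94 to -2.43 and 5.41 to 7.74) and without each single library (-2.92 to -2.63 and 5.15 to 6.66). Slc17a8 turned from -0.26 to 0.56 without group-housed VTA library 3 and to 0.70 without both VTA libraries 3 (chosen after seeing the data); single omissions gave -0.49 to 0.56. Within BLA, leaving out single libraries gave -0.64 to -0.07 for Slc17a6, -0.37 to 0.14 for Slc17a7 and -0.08 to 0.57 for Slc17a8; Slc17a7 turned to 0.14 and Slc17a8 to -0.08 without isolated library 1, and Slc17a8 to -0.02 without group-housed library 3. Within VTA the ranges were 0.09 to 0.49, 1.98 to 4.99 and -2.09 to 0.00, the last value without group-housed library 3. DESeq2 called Slc17a7 in VTA (4.44) and in the difference (-4.60), where single omissions gave -5.18 to -2.16, with -0.97 to -0.40 for Slc17a6 and 0.12 to 2.22 for Slc17a8. Without both VTA libraries that hold choroid plexus genes, which leaves 1 isolated library assumed to vary like the others, Slc17a7 had 1.06. The cause of these shifts was not tested.

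Counts of called genes moved more. In BLA they were 6 with DESeq2, 8 without a filter, 1 with the 3 libraries high in ribosomal loci left out and 0 to 4 without single libraries. In VTA they were 485 with DESeq2, 0 with limma voom, 17 without a filter, 0 without both libraries with choroid plexus genes, 7 without both libraries 3 and 0 to 1200 without single libraries, the highest without isolated library 2. For the difference they were 138 with DESeq2, 1 without a filter and 0 to 487 without single libraries. For BLA against VTA they were 10909 to 11910 without single libraries and 12432 with DESeq2. Between the means of the group-housed libraries, in the fit of all 12 libraries, 9312 were called. Same-numbered libraries did not all deviate together (correlations 0.367, -0.0913 and 0.0111 in BLA and -0.11, 0.0237 and -0.0363 in VTA), with only BLA libraries 1 above 0.1, so the numbers were not taken as pairs. With the replicate number as a block, 0 genes were called in BLA, 0 in VTA, 1 for the difference and 11438 between regions, and Slc17a7 in VTA had 3.17. By longest transcript, Slc17a6 and Slc17a7 made up 5.47% and 94.2% of the transporters in BLA. In isolated VTA library 3 Slc17a6 and Slc17a7 made up 51.07% and 48.4%, against 58.2% and 41.1% by the union of exons.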
